A study of Mus musculus with 2 samples.

Results

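Fc receptors bind the constant part of antibodies. The 8 genes described here are those for the IgG receptors Fcgr1, Fcgr3, Fcgr4 and Fcgr2b, the IgE-binding chain Fcer1a, the neonatal receptor Fcgrt, and the signalling adaptors Fcer1g and Tyrobp. They were chosen by gene symbol among the 55357 features of the count tables, and all 8 were present in both libraries. Fcgr1, Fcgr3 and Fcgr4 encode activating receptors, which signal through the ITAM motif of the Fcer1g chain, and Fcgr2b encodes the inhibitory receptor, whose own ITIM motif recruits phosphatases. Whether an antibody-coated target sets off a macrophage or a neutrophil is known to depend on the balance of these opposing receptors in that cell.

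The study made RUNX3-/- mice with tumours to ask about NK cell infiltration in colorectal cancer. RUNX3 is a DNA-binding regulator that NK cells and cytotoxic T cells are known to need. Both single-cell libraries carry the tissue label colon: 1 has the genotype label RUNX3 ko (KO) and 1 has RUNX3 wt (WT). The sources used here give neither strain, age, tumour model, way of disrupting the gene nor number of animals per library. The KO library held 6573 barcodes with 62465176 UMIs (unique molecular identifiers, counts of captured transcripts) and the WT library 8800 barcodes with 85367638 UMIs. After filtering, 5237 KO cells with a median of 9404 UMIs and 8360 WT cells with a median of 8291 UMIs remained, and 14 barcodes were kept in both libraries.

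The targeted gene did not settle the genotype label. Runx3 had 499 UMIs in KO and 967 in WT NK-gated cells, or 899 CPM (UMIs per 1000000 UMIs) in KO and 719 CPM in WT. Over all cells it had 192 CPM in KO and 255 CPM in WT. The libraries also differed in the sex of their cells: 23.96% of KO and 79.5% of WT cells were male-type (UMIs of a Y-linked gene and none of Xist), and 54.7% of KO and 0.0120% of WT cells were female-type (the reverse). With 1 library per group there is no replicate and no test. All intervals are 95% intervals and cover counting error only, and a KO to WT ratio describes these 2 libraries.

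Cells were assigned to types one by one, from marker genes that did not include any Fc receptor gene. The macrophage gate held 3144 KO and 4941 WT cells, the NK gate 64 and 202, the dendritic gate 160 and 257, the neutrophil gate 84 and 11, and the basophil gate 4 and 5. Mast cells (19 KO and 29 WT) are given as well because they hold the IgE receptor, and T cells (464 and 1113) and fibroblasts (78 and 121) serve as cells that should lack most of these genes. In clusters made without the Fc receptor genes, all NK-gated cells lay in 1 cluster and 94.7% of neutrophil-gated cells in another. Dendritic-gated cells lay mostly in 3 clusters, and 8 basophil-gated and 47 mast-gated cells shared 1.

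Of the 8 genes, 5 lie on chromosome 1 (coordinates are GENCODE M21, GRCm38). Fcgr2b spans chr1:170958617-170976547 on the minus strand, Fcgr4 chr1:171018920-171029761 on the plus strand, Fcgr3 chr1:171051174-171064935 on the minus strand and Fcer1g chr1:171229572-171234365 on the minus strand, with Fcer1a further along at chr1:173221284-173227214 on the minus strand. Fcgr1 lies at chr3:96282909-96293969 on the minus strand. Tyrobp (chr7:30413760-30417585, plus strand) and Fcgrt (chr7:45092990-45103851, minus strand) are on chromosome 7.

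The promoters of the IgG receptor genes are shown because Fcgr1 and Fcgr4 were highest in different macrophage clusters led by interferon-induced genes. Fcgr1 was highest in the Rsad2/Ifit1 cluster and Fcgr4 in the Cxcl9/Gbp2 cluster, and Fcgr2b was highest in neither. Each runs from 250 bases before to 50 after the RefSeq start, 5′ to 3′ on the gene's strand, GRCm38.p6. Capitals mark matches, on either strand, to GAAA-NN-GAAA (N is any base; the core of interferon-stimulated response elements), TTCNNNGAA (bound by STAT dimers), GAGGAAGT (bound by PU.1) and TGTGGT (bound by RUNX factors). No match overlapped another.
Fcgr1: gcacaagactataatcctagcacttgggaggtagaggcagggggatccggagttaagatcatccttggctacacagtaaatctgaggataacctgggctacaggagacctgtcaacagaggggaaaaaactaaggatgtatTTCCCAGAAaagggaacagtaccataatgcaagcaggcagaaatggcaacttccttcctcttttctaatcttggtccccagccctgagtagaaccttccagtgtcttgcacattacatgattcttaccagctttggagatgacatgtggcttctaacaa
Fcgr3: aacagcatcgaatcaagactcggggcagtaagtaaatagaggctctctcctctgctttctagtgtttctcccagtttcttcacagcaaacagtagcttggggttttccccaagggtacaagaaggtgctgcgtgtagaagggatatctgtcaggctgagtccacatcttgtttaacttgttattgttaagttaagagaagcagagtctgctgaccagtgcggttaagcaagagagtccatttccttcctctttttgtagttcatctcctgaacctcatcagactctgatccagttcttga
Fcgr4: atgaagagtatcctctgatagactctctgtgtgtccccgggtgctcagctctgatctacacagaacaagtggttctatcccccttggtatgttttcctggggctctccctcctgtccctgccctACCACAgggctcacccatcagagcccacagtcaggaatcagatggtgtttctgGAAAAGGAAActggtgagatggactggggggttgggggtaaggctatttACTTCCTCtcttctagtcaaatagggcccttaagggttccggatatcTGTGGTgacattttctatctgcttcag
Fcgr2b: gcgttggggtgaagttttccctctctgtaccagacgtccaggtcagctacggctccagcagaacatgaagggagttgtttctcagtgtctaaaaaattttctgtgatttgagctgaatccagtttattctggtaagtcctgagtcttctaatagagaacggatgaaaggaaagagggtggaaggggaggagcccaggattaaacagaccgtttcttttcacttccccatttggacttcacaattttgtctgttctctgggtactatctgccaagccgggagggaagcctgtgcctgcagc
The windows are Fcgr1 chr3:96293920-96294219 (minus strand), Fcgr3 chr1:171059354-171059653 (minus), Fcgr4 chr1:171018676-171018975 (plus) and Fcgr2b chr1:170976022-170976321 (minus). The Fcgr3 and Fcgr2b windows each lie wholly inside the interval that GENCODE gives for the gene. Those of Fcgr1 and Fcgr4 cross the GENCODE start of the gene. Positions give the first base of a match relative to the start. The Fcgr1 promoter held TTCNNNGAA at -109, a motif found in 8.33% of the 32544 distinct promoters. The Fcgr4 promoter held GAAA-NN-GAAA at -73 (3.45% of promoters), GAGGAAGT at -24 (3.11%) and TGTGGT at -126 and 23 (16.7%). Neither the Fcgr3 nor the Fcgr2b window held any of these letters. TGTGGT was also found in the windows of Fcer1a at -14 and Fcer1g at 9. A match is a stretch of letters and not a shown binding site.

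Macrophages held most IgG receptor transcripts and carried activating and inhibitory genes together. They gave 29329 of 34895 activating receptor UMIs in KO and 44684 of 52745 in WT, and 20573 of 24989 Fcgr2b UMIs in KO and 28005 of 32942 in WT. Fcgr3, the low-affinity activating receptor, stood at 446 CPM in KO and 487 CPM in WT macrophage-gated cells. The high-affinity receptor Fcgr1 stood at 194 CPM in KO and 215 CPM in WT, and Fcgr4 at 163 CPM in KO and 204 CPM in WT. The inhibitory Fcgr2b stood at 563 CPM in KO and 568 CPM in WT. These are counts of transcript ends that were not divided by length, so levels are compared between cells and not between genes.

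The adaptors were abundant in the same cells. Fcer1g, the shared ITAM chain of the activating receptors, was found at 1882 CPM in KO and 1797 CPM in WT macrophage-gated cells. Tyrobp, the ITAM adaptor of many other NK and myeloid receptors, was found at 1586 CPM in KO and 1726 CPM in WT. After thinning every cell to 1000 UMIs, 22.9% of KO and 24.4% of WT macrophage-gated cells held UMIs of both Fcgr2b and an activating receptor gene, 29.5% and 31.4% of an activating gene only, and 18.3% and 17.5% of Fcgr2b only.

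**Figure D1:**
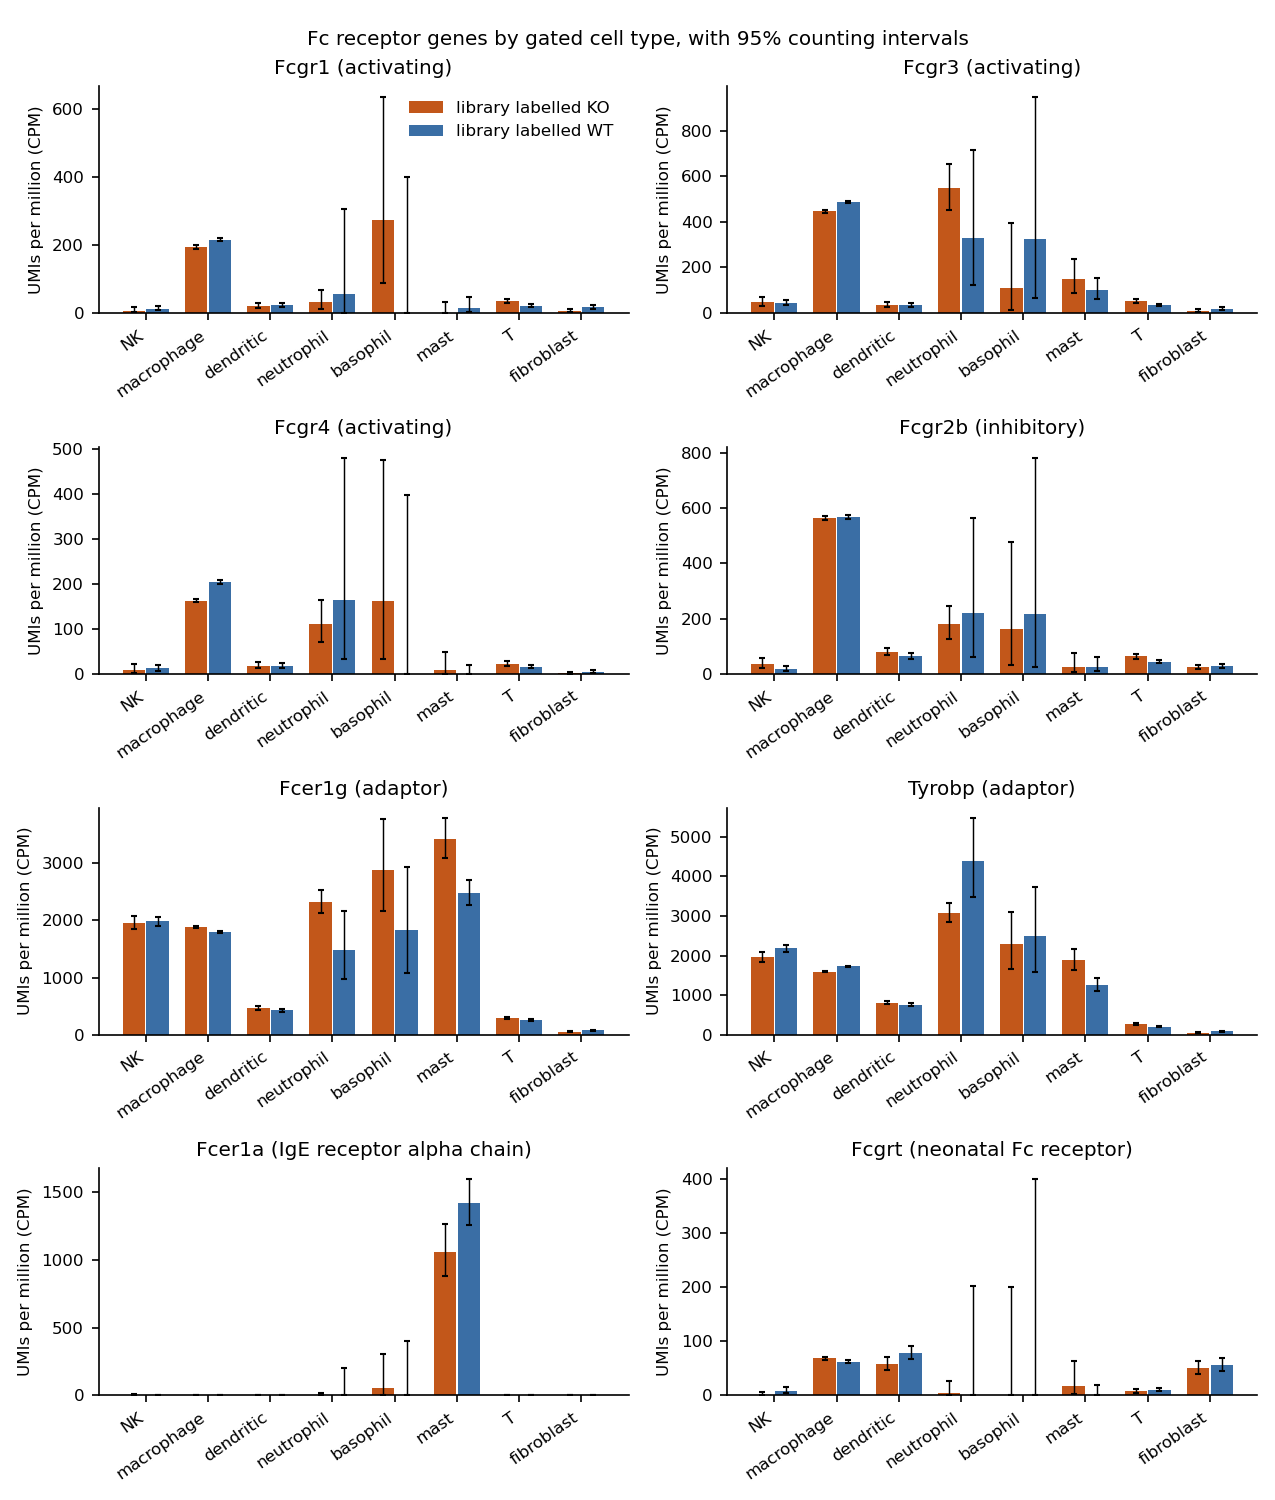
Level of each gene in CPM (y axis) by gated cell type (x axis), with the library labelled KO left of WT and exact Poisson 95% intervals. Fcgr3, Fcgr4 and Fcgr2b were high in macrophage and neutrophil gates and Fcgr1 in macrophages, the adaptors were also high in NK cells, and Fcer1a was found in mast cells; bars of the basophil gate and of the WT neutrophil gate rest on few UMIs.

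The members differed little between the libraries in macrophages. None of the 7 members with at least 50 UMIs passed 1.5-fold in either direction, where 1.15% of the 14013 genes measured were higher and 0.714% lower in KO, 1.86% in all. Over all cells together none of 8 members did, where 1.00% of genes were higher and 0.715% lower, 1.72% in all. Their log2 ratios of KO over WT, taken after adding 5 CPM, had a median of -0.12, against 0.00162 over all genes. Fcgr4 had the ratio furthest from 0, at -0.32, followed by Fcgr1 at -0.15, Fcgr3 at -0.13 and Tyrobp at -0.12. Fcgr2b stood at -0.01, Fcer1g at 0.07 and Fcgrt at 0.12. Only Fcgr2b had a counting interval that held equal levels (KO over WT 0.973 to 1.01).

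The activating over inhibitory ratio, the UMIs of Fcgr1, Fcgr3 and Fcgr4 together over those of Fcgr2b in the same cells, was lower in KO macrophages. It was 1.43 in KO (interval 1.40 to 1.45) and 1.60 in WT (1.57 to 1.62), and the KO ratio was 0.894 times the WT ratio (0.873 to 0.915). Among cells with at least 10 such UMIs, the median cell had 59.0% activating UMIs in KO (2058 cells) and 61.9% in WT (3252 cells). The quartiles, 48.3% and 69.2% in KO and 50% and 73.1% in WT, overlapped over most of their range.

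**Figure D2:**
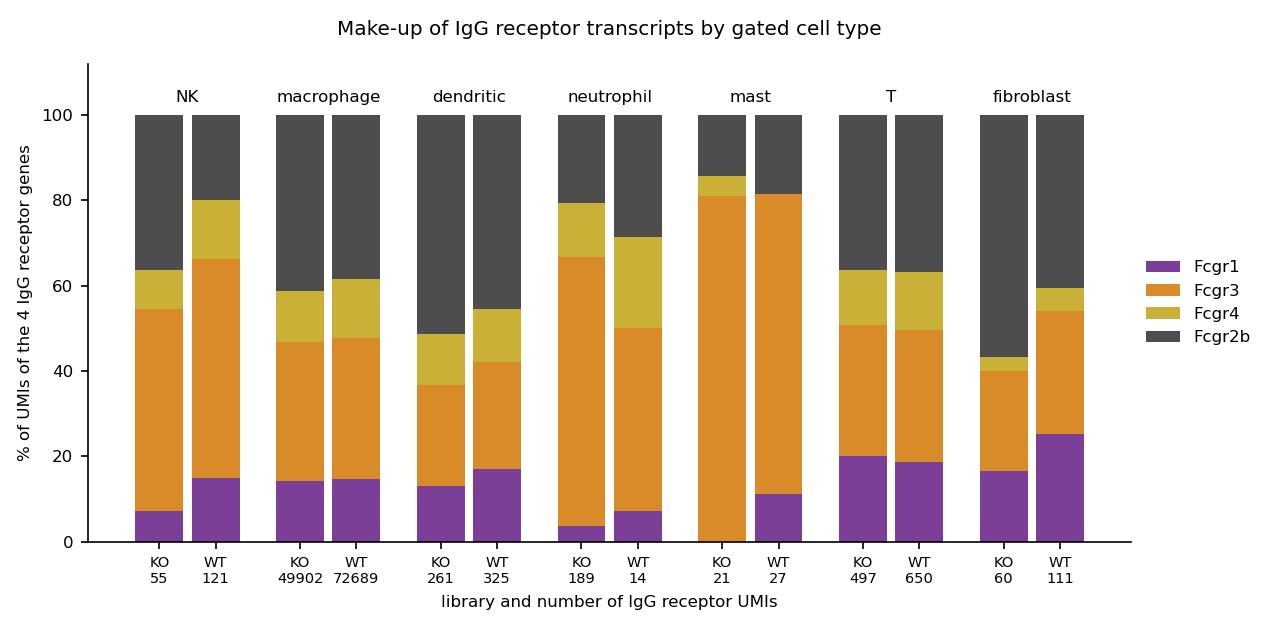
Share of Fcgr1, Fcgr3, Fcgr4 and Fcgr2b among their summed UMIs (y axis, %) by gated cell type, KO left of WT, with the number of UMIs under each bar. Fcgr3 made up 63.0% in KO neutrophils against 32.6% in KO macrophages, and dendritic cells had the largest Fcgr2b shares among the 3 gates of NK, macrophage and dendritic cells, 51.3% in KO and 45.5% in WT.

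The sex type of the cells moved with the level of single receptors but not with this ratio. Within the KO library, Fcgr4 stood at 228 CPM (219 to 238) in 804 male-type and 130 CPM (126 to 135) in 1853 female-type macrophage-gated cells, and in WT it stood at 206 CPM (201 to 210) in 4120 male-type cells. Fcgr4 was therefore higher in KO than in WT among male-type cells, at a log2 ratio of 0.15, the reverse of the whole gate. Fcgr1 stood at 218 CPM (209 to 228) in KO male-type, 180 CPM in KO female-type and 213 CPM (208 to 217) in WT male-type cells. Its direction turned as well, but the male-type intervals of KO and WT overlap. Fcgrt also turned, with 48.7, 77.1 and 62.6 CPM in the same order. Fcgr2b stood at 650 CPM in KO male-type, 521 CPM in KO female-type and 567 CPM in WT male-type cells.

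The activating over inhibitory ratio was 1.42 (1.38 to 1.47) in KO male-type cells, 1.42 (1.39 to 1.46) in KO female-type cells and 1.60 (1.58 to 1.63) in WT male-type cells. It was thus nearly alike in both sex types of KO and below WT in each. By cluster, Fcgr4 was higher in KO male-type than in KO female-type cells in 9 of the 9 clusters with at least 20 cells of each kind. The ratio was lower in KO male-type than in WT male-type cells in 8 of 9, the exception being the Ccl7/Cxcl1 cluster. In the same comparison Tyrobp was lower in 9 of 9 and Fcgr2b higher in 9 of 9. The parts of the ratio thus differed from those of the whole gate. Among male-type cells Fcgr2b, Fcgr1 and Fcgr4 were higher in KO, and Fcgr3 was lower (479 CPM in KO, 490 CPM in WT). In the whole gate Fcgr2b was close between the libraries, and Fcgr1, Fcgr3 and Fcgr4 were lower in KO. Whether each sex type stands for 1 or more animals is not given, so sex and animal cannot be told apart, and this split was added after the data had been seen. The clusters are parts of the same libraries, so counts over clusters are not repeats of a result.

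**Figure D3:**
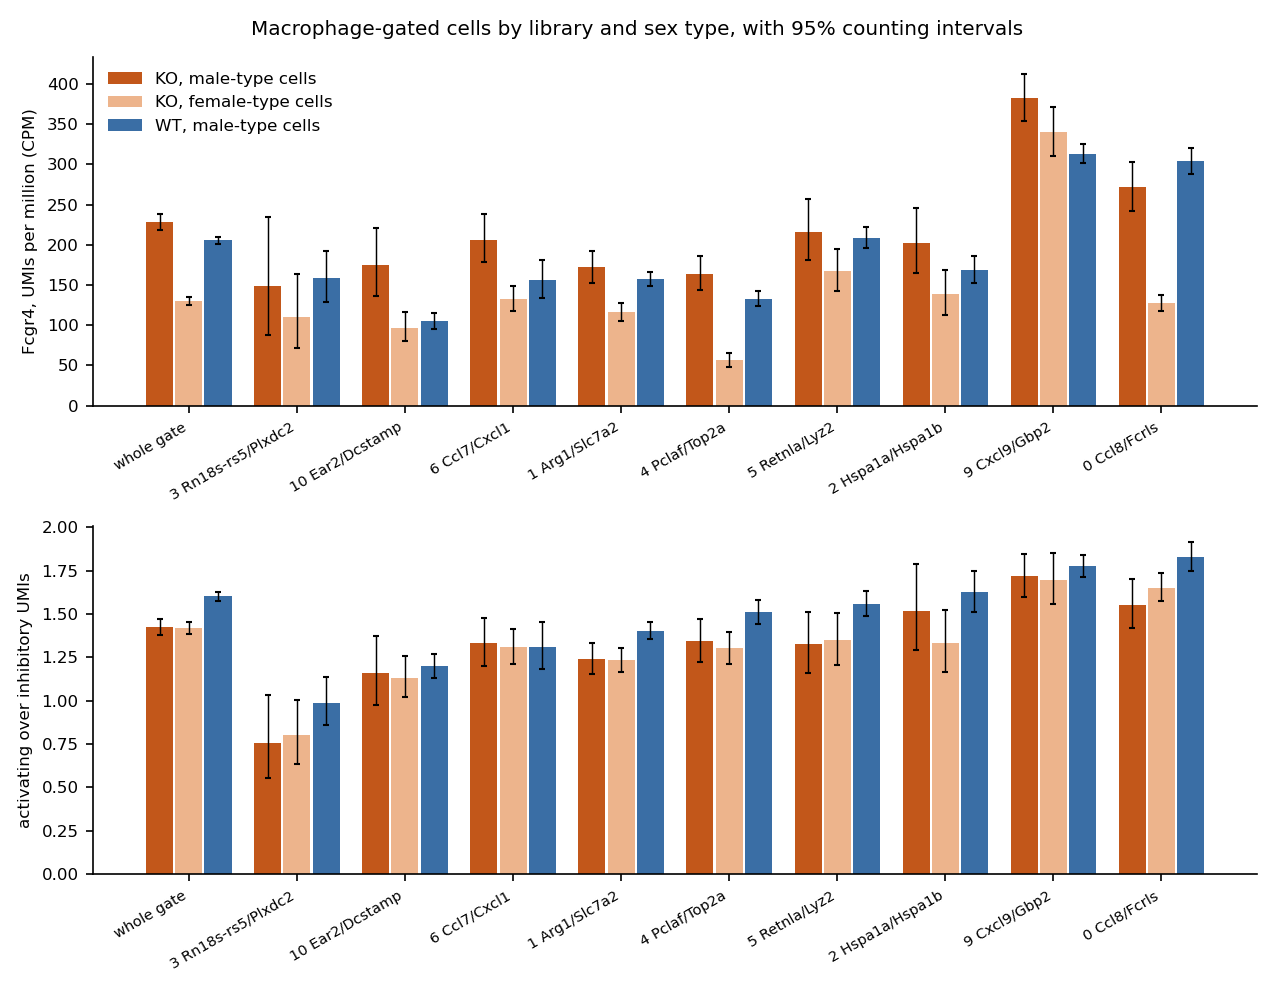
Fcgr4 in CPM (upper panel, y axis) and the activating over inhibitory ratio of UMIs (lower panel, y axis) in the whole macrophage gate and in 9 clusters (x axis, number and leading genes), for KO male-type, KO female-type and WT male-type cells with 95% counting intervals. Fcgr4 was lower in KO female-type than in KO male-type cells in every cluster shown, while the ratio over the whole gate was 1.42 in both and 1.60 in WT.

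Macrophage clusters differed more from each other than the libraries did. Fcgr1 was highest in the cluster led by the interferon-stimulated genes Rsad2 and Ifit1, at 540 CPM in KO and 585 CPM in WT, against 127 to 228 CPM in KO and 136 to 352 CPM in WT in the other 10 clusters. Fcgr4 was highest in the cluster led by Cxcl9 and Gbp2, genes induced by interferon gamma, at 351 CPM in KO and 316 CPM in WT. It was next highest in KO in the Rsad2/Ifit1 cluster, at 325 CPM in KO and 276 CPM in WT. In WT the Ccl8/Fcrls cluster came next, at 294 CPM. The Cxcl9/Gbp2 cluster held Fcgr1 at only 225 CPM in KO and 221.5 CPM in WT. Its Fcgr2b stood at 630 CPM in KO and 597 CPM in WT, above the whole gate at 563 CPM in KO and 568 CPM in WT. Fcgr2b was not raised in the Rsad2/Ifit1 cluster, at 486 CPM in KO and 427 CPM in WT, so the activating over inhibitory ratio was highest there, at 2.71 in KO (2.39 to 3.08) and 3.01 in WT (2.78 to 3.25).

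At the other end stood a shallow cluster led by Rn18s-rs5 and Plxdc2, with a median of 2590 UMIs per KO and 2159 per WT cell, where the ratio was 0.878 in KO and 0.957 in WT. Fcgr2b was 753 CPM in KO and 659 CPM in WT there, its highest level. The Arg1/Slc7a2 cluster also had high Fcgr2b, at 675 CPM in KO and 647 CPM in WT, with ratios of 1.24 in KO and 1.39 in WT. The Plcb1/Chil3 cluster had the second highest ratio, 1.90 in KO and 2.49 in WT. Chil3 is a gene of mouse monocytes.

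The libraries also filled these clusters differently: the Ccl8/Fcrls cluster held 23.9% of KO and 11.9% of WT macrophage-gated cells, and the Cxcl9/Gbp2 cluster 9.16% of KO and 17.1% of WT. With the clusters weighted alike, the log2 ratio of Fcgr4 was -0.12 in place of -0.32, and the log2 difference of the activating over inhibitory ratio was -0.16 in both. Between the libraries, the activating over inhibitory ratio was lower in KO in 10 of 11 clusters, with an interval below equality in 6. The log2 difference ran from -0.39 to 0.02. Tyrobp was lower in KO in 10 of 11 clusters and Fcer1g higher in 10 of 11. All clusters come from the same 2 libraries, so these counts are not repeats of a result. The share of all genes with such counts is not given here. Fcgr4 was mixed, lower in KO in 6 and higher in 5, and its largest gap was in the Ccl8/Fcrls cluster, with 163 CPM in KO and 294 CPM in WT. In that cluster Fcgr4 stood at 272 CPM in KO male-type, 127 CPM in KO female-type and 304 CPM in WT male-type cells.

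**Figure D4:**
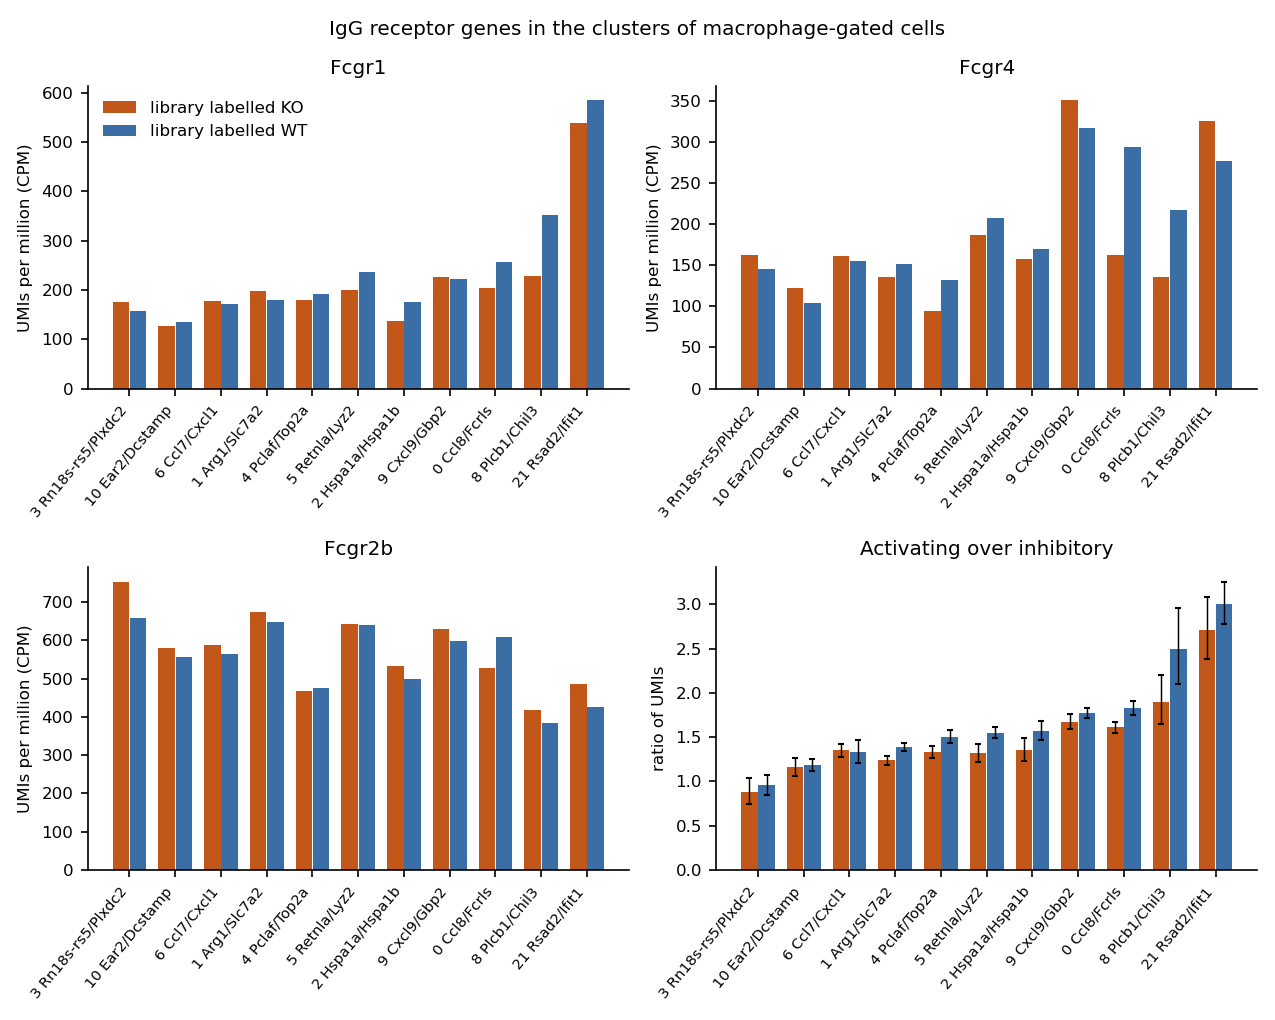
Fcgr1, Fcgr4 and Fcgr2b in CPM and the activating over inhibitory ratio of UMIs with its 95% counting interval (y axes) in 11 clusters of macrophage-gated cells (x axes, number and leading genes), KO left of WT, ordered by the WT ratio. The ratio spans 0.878 to 2.71 in KO and 0.957 to 3.01 in WT, a wider range than the gap between libraries in any cluster.

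**Figure D5:**
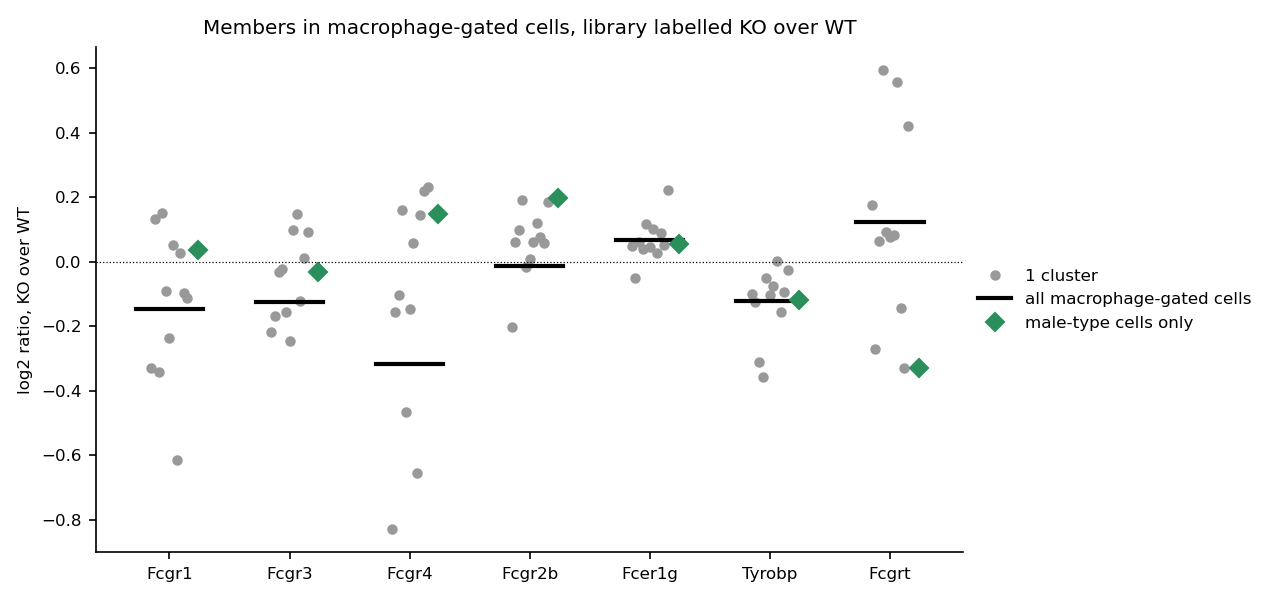
Log2 ratio of KO over WT (y axis) for 7 members in macrophage-gated cells: each grey point is 1 of 11 clusters, the black line the whole gate and the green diamond the male-type cells. Tyrobp lies below 0 and Fcer1g above 0 in 10 of 11 clusters, while the diamond lies on the other side of 0 from the line for Fcgr1, Fcgr4 and Fcgrt, as well as for Fcgr2b, whose line lies close to 0.

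Neutrophils carried Fcgr3 and little Fcgr1. Fcgr3 stood at 547 CPM in KO (119 UMIs, 454 to 655) and 330 CPM in WT (6 UMIs, 121 to 717) neutrophil-gated cells. Fcgr1 stood at 32.2 CPM in KO on 7 UMIs, and WT had 1 UMI. Fcgr3 made up 63.0% (55.7 to 69.9) of the IgG receptor UMIs in KO neutrophils, against 32.6% (32.2 to 33.1) in KO macrophages. The activating over inhibitory ratio was 3.85 in KO (2.69 to 5.62) and 2.5 in WT (0.721 to 10.9).

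Tyrobp reached 3087 CPM in KO and 4395 CPM in WT neutrophils, and Fcer1g 2328 CPM in KO and 1483 CPM in WT. Of the 3 members with at least 50 UMIs in this gate, Fcgr3 and Fcer1g passed 1.5-fold, both higher in KO. In the same gate 38% of 782 genes were higher and 19.1% lower in KO by that rule, 57% in all, so the WT gate, with 11 cells and 18204 UMIs, does not support a comparison. Macrophage markers summed to 3469 CPM in KO and 5823 CPM in WT neutrophils, and their part was not tested. Among male-type cells Tyrobp turned, at 4258 CPM in 19 KO and 3601 CPM in 3 WT cells.

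NK cells had the adaptors at macrophage levels and little of the receptors. Fcer1g stood at 1963 CPM in KO and 1983 CPM in WT NK-gated cells, and Tyrobp at 1961 CPM in KO and 2178 CPM in WT. Fcgr3, the IgG receptor known on mouse NK cells, stood at 46.8 CPM in KO (26 UMIs, 30.6 to 68.6) and 46.1 CPM in WT (62 UMIs, 35.4 to 59.1). T-gated cells, which should lack it, held 52.9 CPM in KO and 36.1 CPM in WT. Fibroblast-gated cells held 9.91 CPM in KO and 19.3 CPM in WT.

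Thinned to 1000 UMIs, 3.13% of KO and 5% of WT NK cells held an Fcgr3 UMI, against 3.71% of KO and 2.27% of WT T cells. The intervals overlap, so at this depth the share could not be told from that in T cells. Without thinning, the shares were 28.1% of KO and 24.3% of WT NK cells and 17.2% of KO and 9.97% of WT T cells. Median depth was 7162 UMIs in KO and 5800 in WT NK cells and 4764 in KO and 3929 in WT T cells. The summed level of the macrophage markers was 652 CPM in KO and 793 CPM in WT NK cells and 1517 CPM in KO and 1541 CPM in WT T cells, against 23189 CPM in KO and 27827 CPM in WT macrophages. Their part in the NK values was not tested.

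The make-up of the IgG receptor UMIs was set beside that of T cells. Fcgr3 was 47.3% (33.7 to 61.2) of the IgG receptor UMIs in KO and 51.2% (42.0 to 60.4) in WT NK cells. In T cells it was 30.6% (26.6 to 34.8) in KO and 30.9% (27.4 to 34.6) in WT, close to the 32.6% in KO and 33.0% in WT macrophages. In WT the NK and T intervals do not overlap, and in KO they do. In T cells none of the 7 members with at least 50 UMIs passed 1.5-fold, where 3.15% of genes were higher and 2.09% lower in KO, 5.24% in all. Their median log2 ratio was 0.43, against -0.03 over all genes. Without the added 5 CPM, KO over WT was 1.60 for Fcgr1 (1.216 to 2.105) and 1.465 for Fcgr3 (1.179 to 1.818). It was 1.41 for Fcgr4 (1.005 to 1.967) and 1.46 for Fcgr2b (1.198 to 1.78). As a reference, T cells thus held more of these genes in KO.

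Fcgr2b stood at 36.01 CPM in KO (20 UMIs) and 17.9 CPM in WT (24 UMIs) NK cells, below 62.95 CPM in KO and 43.1 CPM in WT T cells. A single KO NK cell held 13 of the 20 UMIs, and without it the KO level was 13.2 CPM. Fcgr1 stood at 7.2 CPM in KO and 13.4 CPM in WT NK cells, against 34.8 and 21.7 CPM in T cells. Fcgr4 stood at 9.0 CPM in KO and 12.6 CPM in WT NK cells, against 22.3 and 15.8 CPM in T cells. Of the genes in the ratio, only Fcgr3 in WT stood above its T cell level. The activating over inhibitory ratio was 1.75 in KO and 4.04 in WT NK cells. Leaving out the cell with most Fcgr2b UMIs in each library gave 4.57 in KO (1.98 to 12.3) and 4.30 in WT (2.62 to 7.39), so the lower KO value rested on 1 cell. None of the 3 members with at least 50 UMIs in NK cells passed 1.5-fold, where 2.93% of 5299 genes were higher and 5.89% lower in KO, 8.81% in all. With a minimum of 20 UMIs, Fcgr2b was past it higher and Fcgr1 lower among 6 members, where 4.91% of genes were higher and 9.28% lower, 14.2% in all.

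Dendritic cells had the lowest activating over inhibitory ratios of the 5 gates in KO and in WT. The ratio was 0.948 in KO (0.738 to 1.22) and 1.20 in WT (0.956 to 1.498), and the KO ratio was 0.793 times the WT ratio (0.572 to 1.10), an interval that holds equality. The direction turned when cells were thinned to 1000 UMIs (log2 difference 0.37). The clusters of dendritic-gated cells differed. In the Xcr1/Plet1 cluster the ratio was 1.75 in KO (0.822 to 3.90) and 1.24 in WT (0.826 to 1.87). It was 0.865 in KO and 1.16 in WT in the Cd209a/Ccl17 cluster, and 0.792 and 1.08 in the Ccl22/Fscn1 cluster. Macrophage markers summed to 883 CPM in KO and 1206 CPM in WT dendritic cells, and their part in these values was not tested. Fcgr2b stood at 79.9 CPM in KO and 64.0 CPM in WT, against 62.95 CPM in KO and 43.1 CPM in WT T cells. Fcgr3 stood at 37.0 CPM in KO and 35.5 CPM in WT, while T cells held it at 52.9 CPM in KO and 36.1 CPM in WT. Fcgr1 stood at 20.3 CPM in KO and 23.8 CPM in WT, against 34.8 and 21.7 CPM in T cells. Fcgr4 stood at 18.5 CPM in KO and 17.3 CPM in WT, against 22.3 and 15.8 CPM in T cells. All activating genes in KO dendritic cells thus stood below their T cell levels. Fcer1g stood at 465 CPM in KO and 428 CPM in WT, and Tyrobp at 809 CPM in KO and 755 CPM in WT. None of the 7 members measured passed 1.5-fold, where 2.68% of 7268 genes were higher and 3.51% lower in KO, 6.19% in all.

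Dendritic subsets had different levels. Cells with Cd209a, a marker of conventional type 2 cells, had the highest Fcer1g and Fcgr2b, with Fcer1g at 912 CPM in KO and 1172 CPM in WT and Fcgr2b at 191 CPM in KO and 139 CPM in WT, from 14 KO and 23 WT cells. Cells with Ccr7, which guides mature dendritic cells to lymph nodes, had Fcgr2b at 43.0 CPM in KO and 45.4 CPM in WT, and cells with Xcr1 or Clec9a at 34.7 CPM in KO and 56.3 CPM in WT. Xcr1 and Clec9a mark cross-presenting cells, and these had the least Fcer1g, at 184 CPM in KO and 229 CPM in WT.

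The neonatal receptor followed a pattern of its own. Fcgrt encodes the chain that, with beta-2 microglobulin, rescues IgG from degradation. It stood at 57.9 CPM in KO and 78.7 CPM in WT dendritic cells, 68.1 CPM in KO and 62.2 CPM in WT macrophages, and 50.3 CPM in KO and 56.1 CPM in WT fibroblasts. Among dendritic cells it was lowest in Ccr7 cells, at 13.4 CPM in KO and 20.7 CPM in WT, and highest in Cd209a cells, at 133 CPM in KO and 171 CPM in WT. Xcr1 or Clec9a cells stood between, at 78.1 CPM in KO and 118 CPM in WT. Among macrophages it was highest in the Ccl8/Fcrls cluster, at 140 CPM in KO and 124 CPM in WT. Neutrophil, basophil and NK gates had 1, 0 and 0 UMIs in KO and 0, 0 and 11 in WT, 7 of those 11 in 1 cell.

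The IgE-binding chain lay in mast cells and was barely detected in basophils. Fcer1a stood at 1062 CPM in KO (121 UMIs, 882 to 1269) and 1419 CPM in WT (271 UMIs, 1255 to 1598) mast-gated cells. Basophil-gated cells had 1 UMI among 18379 in KO, with an upper interval bound of 303 CPM, and 0 among 9242 in WT, with an upper bound of 399 CPM. By the rule of 3 counts, the 0 in WT allows up to 325 CPM. These bounds lie below the mast intervals. The basophil cells held Mcpt8, a basophil protease, at 21 UMIs in KO and 17 in WT and Il4 at 43 and 89. Another basophil protease, Prss34, was at 0 UMIs in both libraries, against 17 in KO and 31 in WT mast cells. The gate used these genes and left out any cell in which a mast gene was found, so they are no separate check of identity. Mcpt8 was not confined to basophils, with 1 UMI in KO and 429 in WT mast cells. In WT it stood at 2246 CPM in mast and 1839 CPM in basophil cells, and in KO at 8.78 and 1143 CPM. The mast gate did not leave out cells with basophil genes, and the part of basophil RNA in it was not tested.

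Ms4a2, the beta chain of the IgE receptor, had 36 UMIs in KO and 43 in WT mast cells and 2 and 1 in basophils. Basophils had the adaptors, with Fcer1g at 2884 CPM in KO and 1839 CPM in WT and Tyrobp at 2285 CPM in KO and 2489 CPM in WT. Of their 13 and 5 IgG receptor UMIs in KO and WT, the 5 of Fcgr1 and 3 of Fcgr4 in KO came from 1 cell of 9335 UMIs. Macrophage markers summed to 2448 CPM in KO and 1623 CPM in WT basophils, and their part was not tested. In mast cells Fcgr3 was 17 of 21 IgG receptor UMIs in KO and 19 of 27 in WT. Of the 3 members with at least 50 UMIs in mast cells, 1 (Tyrobp, 1888 CPM in KO and 1251 CPM in WT) passed 1.5-fold, where 8.95% of 883 genes were higher and 15.2% lower in KO, 24.1% in all.

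The genes most like each member over the clusters were then listed. The measure was Pearson's r of log2 level over 54 profiles (clusters by library with at least 20 cells), which share libraries and depth. The gene most like Fcgr1 was Fcgr4 (r = 0.937), followed by Clec4a1 (0.926) and Sirpb1c (0.922). Fcgr3 was most like Pilra (0.948), Ctsc (0.940) and Sirpb1c (0.938), and Fcgr2b most like Itgam (0.952), Tgfbi (0.951) and Clec4n (0.948). Among the members, Fcgr3 was most like the inhibitory Fcgr2b (0.932), ahead of Fcgr1 (0.921) and Fcgr4 (0.906). The profiles span clusters of many cell types, so this likeness cannot show whether activating and inhibitory genes part within macrophages. Fcer1g and Tyrobp were most like each other (0.914), Fcer1a was most like the mast protease Mcpt1 (0.996), and Fcgrt had the weakest best match, Olfm1 (0.828).

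Genes downstream of the receptors were also close between the libraries in macrophages. Of the 16401 genes with at least 20 UMIs 0.982% were past 1.5-fold higher and 0.61% lower in KO, 1.59% in all, with a median log2 ratio of 0.00386. Of 9 receptor-proximal kinases 3 were higher and 6 lower in KO, with a median of -0.09 and none past 1.5-fold. Fyn (144 CPM in KO, 216 CPM in WT) and Lyn (875 and 1095 CPM), Src family kinases that phosphorylate these motifs, had the lowest ratios, -0.57 and -0.32, and Btk (43.8 and 39.0 CPM) and Lck (2.41 and 2.01 CPM) the highest, 0.15 and 0.08. Of 16 adaptors and enzymes 8 were higher and 8 lower, from Lcp2 (log2 ratio 0.40) and Card9 (0.12) to Grb2 (-0.26) and Plcg2 (-0.31).

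Of 12 phosphatases and inhibitory adaptors 6 were higher and 6 lower, with a median of -0.03, from Dok3 (0.22) and Inppl1 (0.05) to Pag1 (-0.23) and Dok1 (-0.27). Inpp5d, the lipid phosphatase that Fcgr2b recruits, was at 265 CPM in KO and 280 CPM in WT. Of 16 ITIM receptors 10 were higher and 6 lower in KO, with a median of 0.12. Cd33 (0.35) and Ceacam1 (0.25) were the highest, and Klrb1b, an NK receptor gene, at 30.2 CPM in KO and 63.1 CPM in WT (-0.95), with Cd300a (-0.18) next, the lowest.

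Of 22 measured genes listed as receptors that pair with Tyrobp or Fcer1g 9 were higher and 13 lower, with a median of -0.08. That list also holds Clec7a, Csf1r and Itgb2, which are not receptors of this pairing kind. The C-type lectin Clec4e was the highest, at 197 CPM in KO and 124 CPM in WT (0.65), followed by Klra4 (0.22), and Klrk1 was the lowest, at 16.5 CPM in KO and 32.3 CPM in WT (-0.80), followed by Cd200r4 (-0.46). Of the other Fc receptor genes 8 of 13 were measured, 5 higher and 3 lower. Fcrls, an Fc receptor-like gene of resident macrophages, was the only one past 1.5-fold, at 212 CPM in KO and 58.8 CPM in WT (1.76). It leads a cluster that held a larger share of KO cells, and within that cluster it stood at 575 CPM in KO and 204 CPM in WT. It was higher in KO in 11 of 11 clusters, which are parts of the same libraries and not repeats. Next came B2m (0.12), the partner of Fcgrt, and the lowest were Trim21 (-0.10), a cytosolic antibody receptor, and Fcrlb (-0.06).

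In NK cells the same lists rest on fewer UMIs. As given above, 4.91% of NK genes with at least 20 UMIs were past 1.5-fold higher and 9.28% lower in KO. Of 6 kinases 1 was higher and 5 lower in KO, with 1 past 1.5-fold, Zap70, a kinase of ITAM signalling, at 79.2 CPM in KO and 130 CPM in WT. The adaptor Lat was also past it, at 14.4 CPM in KO and 36.4 CPM in WT. Those past it in the other direction were Csf1r at 37.8 CPM in KO and 15.6 CPM in WT, Lilrb4a at 23.4 CPM in KO and 8.92 CPM in WT, and Clec7a at 73.8 CPM in KO and 45.4 CPM in WT. They rest on 21, 13 and 41 UMIs in KO and 21, 12 and 61 in WT. Csf1r is a marker of the macrophage gate, which held it at 570 CPM in KO and 518 CPM in WT. That gate held Lilrb4a at 56.3 and 47.5 CPM and Clec7a at 609 and 633 CPM. The part of macrophage RNA or of single cells in these NK values was not tested. Of 9 phosphatases and inhibitory adaptors 1 was higher and 8 lower, none past 1.5-fold, with a median log2 ratio of -0.24 against -0.04 over all genes. Cd247, the zeta chain that pairs with Fcgr3 in human NK cells, stood at 81.0 CPM in KO and 129 CPM in WT (log2 ratio -0.64). In dendritic cells 3.49% of genes with at least 20 UMIs were past 1.5-fold higher and 4.32% lower in KO, 7.8% in all. Of 15 genes measured there in the list of receptors that pair with Tyrobp or Fcer1g 13 were higher and 2 lower, with 3 past 1.5-fold. The 13 include Clec7a (log2 ratio 0.59), Csf1r (0.30) and Itgb2 (0.26), which are not receptors of this pairing kind. The NK genes past 1.5-fold other than Cd247 and the 3 dendritic genes (Clec7a, Clec4e and Clec4n) were chosen after their values were seen. Clec4n stood at 105 CPM in KO and 52.8 CPM in WT dendritic cells (log2 ratio 0.93).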

How the data were processed

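The deposited values are raw UMI counts per gene and barcode, 1 matrix per library. The authors made these counts with Cell Ranger 8.0.1, per the file headers, and the build mm10 and Seurat 3 are named in the submitters' processing notes. Cells were captured in microwells with barcoded beads, per the labels' protocols. The sources used here do not say how reads shared by Fcgr2b and Fcgr3, which are alike in sequence, were counted. Of 55357 features, 52081 identifiers matched GENCODE M21.

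Barcodes needed at least 500 UMIs, 200 genes and at most 25% mitochondrial UMIs, and the 5% with the highest Scrublet scores (scanpy 1.11.5) per library were left out, because its automatic threshold marked 0.0362% of KO and 0% of WT barcodes. A cell passed a gate with a set number of markers found at 1 or more per 10000 UMIs: 4 of 9 for NK, 7 of 11 for macrophage, 3 of 9 for dendritic, 4 of 9 for neutrophil and 3 of 7 for basophil, the basophil gate also needing that no mast gene be found. These numbers were set after marker distributions had been seen. Cells in no gate (877 KO, 1013 WT) or several (309 KO, 644 WT) were left out. Leiden clustering gave 30 clusters.

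Counts were summed per gate and library as CPM. At 95%, shares, activating over inhibitory ratios and KO over WT ratios of single genes have Clopper-Pearson intervals, and sums have exact Poisson ones. The KO over WT comparison of activating over inhibitory ratios has an approximate interval, from a normal distribution of the log odds ratio. UMIs of cells in 1 library are not independent samples of animals. A gene was called past 1.5-fold with at least 50 UMIs, or 20 in the pathway lists. A count of 0 allows 3 counts. The computation was tested on simulated data. All 8 members are named whatever their value, and of each list the 2 highest and 2 lowest ratios and subunits of a receptor described. For likeness, the 3 genes with the highest correlation were taken, and those given in the text are among them. Of the 8 members, 7 matched a RefSeq promoter. Members and lists were chosen with earlier results of these data known. Alternatives changed the filter, doublets, gate, depth, scaling, pseudocount, fold, minimum and sex type of cells.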

Additional observations from a re-analysis of the deposited data

How the results depend on the processing

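The lower activating over inhibitory ratio of KO macrophages (log2 difference -0.16) kept its direction under every alternative run, and moved beyond its counting interval only with Fcgr3 alone over Fcgr2b (-0.11). In dendritic cells it was -0.34 and became 0.37 with cells thinned to 1000 UMIs. Among member ratios whose counting interval excluded equality, the log2 ratio of KO over WT changed direction in male-type cells for Fcgr1 (0.037), Fcgr4 (0.15) and Fcgrt (-0.33) in macrophages, Fcgr2b in NK cells (-2.10) and Tyrobp in neutrophils (0.24), and with thinned cells for Fcgr2b in NK cells (-0.76). Of 388 member ratios, 344 stayed within their counting spread, 38 moved and these 6 changed direction. Of the 227 whose interval held equality as reported, 36 took the other sign, among them Fcgr2b in macrophages (0.20 in male-type cells). The cause was not tested.

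Counts of genes past 1.5-fold moved more. Of 467 in NK cells, there were 204 with 20 CPM added, 144 thinned, 1128 in male-type cells, 51 with a minimum of 200 UMIs, 2563 with 1 UMI and 63 at 2-fold. Of 450 in dendritic cells, there were 126, 144, 1101, 116, 1110 and 73 under the same settings. Of 261 in macrophages, there were 684 with 1 CPM added, 102 with 20 CPM added and 55 at 2-fold. Alternatives that needed 1 marker fewer, left out shared barcodes, weighted clusters alike, left out single cells or set the sex types of KO side by side were chosen after seeing the data. Clusters in place of gates did not separate basophils from mast cells. No paired analysis was possible because there is 1 library per genotype and the labels give no replicate numbers. Basophil and WT neutrophil values are limited by 4, 5 and 11 cells.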

Other observations

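Plasmacytoid dendritic and B-gated cells, which are outside the comparisons above, were few. The 17 KO and 12 WT plasmacytoid cells had Tyrobp at 3234 CPM in KO (2965 to 3520) and 4104 CPM in WT (3604 to 4654), levels above those of the macrophage gate, and Fcer1g at 1080 CPM in KO and 980 CPM in WT. Siglech, a receptor of these cells, is known to signal through Tyrobp. The 17 KO and 12 WT B cells had 6 Fcgr2b UMIs in KO and 9 in WT, or 89.15 CPM (32.7 to 194) and 203 CPM (93.05 to 386). The 6 came from 5 KO cells and the 9 from only 2 WT cells. The activating receptor genes of B cells together had 2 UMIs in KO and 13 in WT. In WT 6 of them were Fcgr1 UMIs of 1 cell. The KO interval holds the Fcgr2b level of T and dendritic cells. Macrophage markers summed to 1426 CPM in KO and 2532 CPM in WT B cells and to 2815 CPM in KO and 1098 CPM in WT plasmacytoid cells, and their part was not tested.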
